A study of Mus musculus with 25 samples.

Results

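The chromatin contacts of the mouse Tbx3 gene were taken from 9 interaction lists made from 25 libraries. The members were every pair of 10 kb bins with an anchor in the bin that holds the start of Tbx3, or in the bin on either side, chr5:119660001-119670000 and chr5:119680001-119690000. This gave 103 of 912901 list entries, which come to 37 distinct bin pairs, and 6 of the 9 lists held at least 1 of them. Positions are on mm10, the build named in the submitters' processing notes. RefSeq (GRCm38.p6) places Tbx3 at chr5:119670534-119684724, so its first part lies in the central bin and the rest in the bin after it. Bins are named below by their distance from the central bin, with "before" for lower coordinates.

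The pluripotent cells were V6.5 embryonic stem (ES) cells, an established mouse line, grown in 2i, a medium that holds inhibitors of MEK and GSK3. The fibroblasts (MEFs) came from E13.5 embryos heterozygous for an OKSM reprogramming cassette, the rtTA3 activator and an Oct4-GFP reporter, and were collected at passage 3. The same kind of MEF was also given doxycycline and ascorbic acid and collected on day 3 in bulk, or on day 6 after sorting for SSEA1, a surface marker of cells on the way to pluripotency. The cells labelled TKO were V6.5 cells in 2i without doxycycline (0 h) or with it for 24 h. The labels do not spell out TKO or say what doxycycline does in these cells, and contact counts hold no RNA or protein level that could check a targeted gene. The H3K27ac lists rest on 2 libraries each of MEF and ES cells and 3 each of TKO cells at 0 h and 24 h. The KLF4 lists rest on 3 libraries of day 3 and 4 each of day 6 and ES cells, and each of the Hi-C lists, of MEF and of ES cells, rests on 2.

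TBX3 is a T-box transcription factor that belongs to the network of naive pluripotency genes and helps ES cells to self-renew downstream of LIF signalling. Later in the embryo the gene patterns the limbs, the heart and the mammary glands. Active enhancers and promoters carry the histone mark H3K27ac, and an enhancer can lie many kilobases from a gene while touching its promoter in the nucleus. HiChIP counts such touches among fragments bound by an antibody, and Hi-C counts them without one. KLF4 is a zinc finger factor of the Krüppel-like family, whose members bind CACCC-type sequences. Functional tests of single Tbx3 enhancers are not analysed here.

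The HiChIP libraries held 48.7 to 181 M contacts, of which 2.92 to 10.4 M fell on chromosome 5. Strength is given as the deposited CPM, the count divided by all contacts of the same chromosome and scaled as counts per 1 M. The deposited lists are already filtered: p-values stay under 0.1 in the HiChIP lists and under 0.01 in the Hi-C lists, and every H3K27ac library exceeds 3 CPM at each entry. Some KLF4 libraries reach down to 0 CPM at listed entries. A list may lack an interaction because of its p-value or because of the signal in a single library. The strength of such an interaction is therefore unknown and need not be low, and none of its counts were used here. As a check of the cell labels, bins of the pluripotency markers Nanog, Sall4, Zfp42 and Dppa5a had more H3K27ac interactions in ES than in MEF for 4 of 4 genes, and those of the fibroblast markers Thy1, Col1a1, Vim and Pdgfrb for 0 of 4. The labels do not say which cultures or animals each replicate library came from, so p-values measure only the spread between these libraries, which may be technical.

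The bins that touched Tbx3 lie among long noncoding RNA genes. RefSeq's promoter table was searched for Tbx3 and the 5 noncoding genes that overlap the contacting bins, and it held 3 of these 6. The promoter of Tbx3os1, the antisense gene that starts inside the Tbx3 bin and runs back across the contacting bins, lies at chr5:119671459-119671758 on the minus strand. The promoter of Gm16064 lies in the bin 30 kb before, at chr5:119645887-119646186 on the plus strand. Both are shown because they are the promoters of the table that stand in contacting bins, and capitals mark CACCC on either strand.
Tbx3os1: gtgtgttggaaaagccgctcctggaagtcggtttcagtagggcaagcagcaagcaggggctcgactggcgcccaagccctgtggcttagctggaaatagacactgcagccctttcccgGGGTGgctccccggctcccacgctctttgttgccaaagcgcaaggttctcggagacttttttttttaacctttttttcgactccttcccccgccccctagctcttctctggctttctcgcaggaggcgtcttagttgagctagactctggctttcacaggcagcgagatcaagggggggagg
Gm16064: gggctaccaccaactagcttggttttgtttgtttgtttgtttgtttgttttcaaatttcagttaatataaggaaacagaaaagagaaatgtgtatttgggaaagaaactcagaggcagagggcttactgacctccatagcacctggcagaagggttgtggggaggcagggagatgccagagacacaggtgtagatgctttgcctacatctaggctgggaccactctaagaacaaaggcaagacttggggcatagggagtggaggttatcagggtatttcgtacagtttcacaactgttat
The first had 1 match and 14 CpG dinucleotides, and the second had 0 matches and 1 CpG. The letters CACCC, or GGGTG on the other strand, stood in 57.5% of 32851 promoters of this length, and the median promoter had 7 CpG. The longer CCNCACCC, which contains CACCC, was found in neither promoter and in 16.6% of all. A match of these letters is a description and not a binding site.

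In ES cells the Tbx3 bin was tied to a stretch that reached 100 kb before it and 40 kb after it. The ES H3K27ac list held 24 interactions of the 3 bins, of which 13 touched the Tbx3 bin itself, 10 of them with partners before it and 3 with partners after it. Per the TKO lists, the 3 bins and all partners of this stretch carried H3K27ac ChIP peaks at both 0 h and 24 h, whereas the bin 110 kb before, a partner in the TKO 0 h list, carried none. The bin 20 kb after Tbx3, which the lists annotate with the antisense gene Tbx3os2, was a partner of the 3 bins in none of the 9 lists. Among 10485 bins that the lists annotate with a gene, 479 had more than the 13 ES H3K27ac interactions of the Tbx3 bin, and the median bin had 3.

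**Figure D1:**
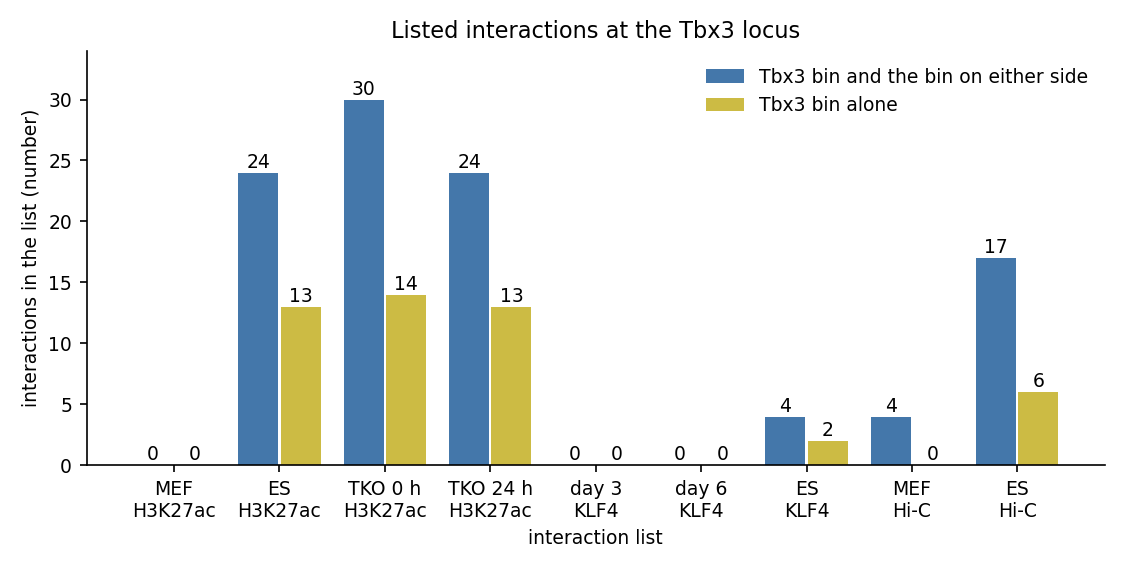
Number of listed interactions (y axis) in each of the 9 lists (x axis), for the Tbx3 bin with the bin on either side (blue) and for the Tbx3 bin alone (yellow). The MEF H3K27ac list and both lists of KLF4 during reprogramming have 0, and the H3K27ac lists of ES and TKO cells have 24 to 30.

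The strongest ES contact of Tbx3 was with the bin 90 kb before it, chr5:119580001-119590000, whose lowest coordinates overlap the noncoding gene AW549542 (chr5:119570129-119580358). Its CPM was 21.3 and 21.6 in the 2 ES H3K27ac libraries, from 210 and 217 counts, with an FDR of 3.47e-22 in the authors' deposited list. It ranked 1 of the 31 chromosome 5 pairs listed at that distance. It made up 19.6% and 18.0% of the summed CPM of the Tbx3 bin. The same partner joined the bin after Tbx3 at 133 and 106 counts and the bin before it at 84 and 79 counts. The 2 libraries thus gave the same order of these 3 contacts, with the Tbx3 bin on top.

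Other partners of the Tbx3 bin had less. The neighbouring bin before Tbx3 had 15.03 and 15.3 CPM with it, and the bin 20 kb before had 11.6 and 12.3 CPM. These near contacts ranked 64 of 1064 and 45 of 864 among chromosome 5 pairs of their distances. The bin 60 kb before, most of which Tbx3os1 covers, had 8.02 and 10.7 CPM and ranked 4 of 99. The bin 100 kb before, most of which AW549542 covers, had 6.90 and 7.27 CPM and ranked 2 of 28. The longest ES H3K27ac interaction spanned 110 kb, from that bin to the bin after Tbx3, at 4.67 and 6.08 CPM. Partners 80, 70, 50 and 30 kb before Tbx3 had 3.66 to 6.58 CPM in single libraries. Distance alone did not order these contacts, since the strongest was 1 of the farthest.

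**Figure D2:**
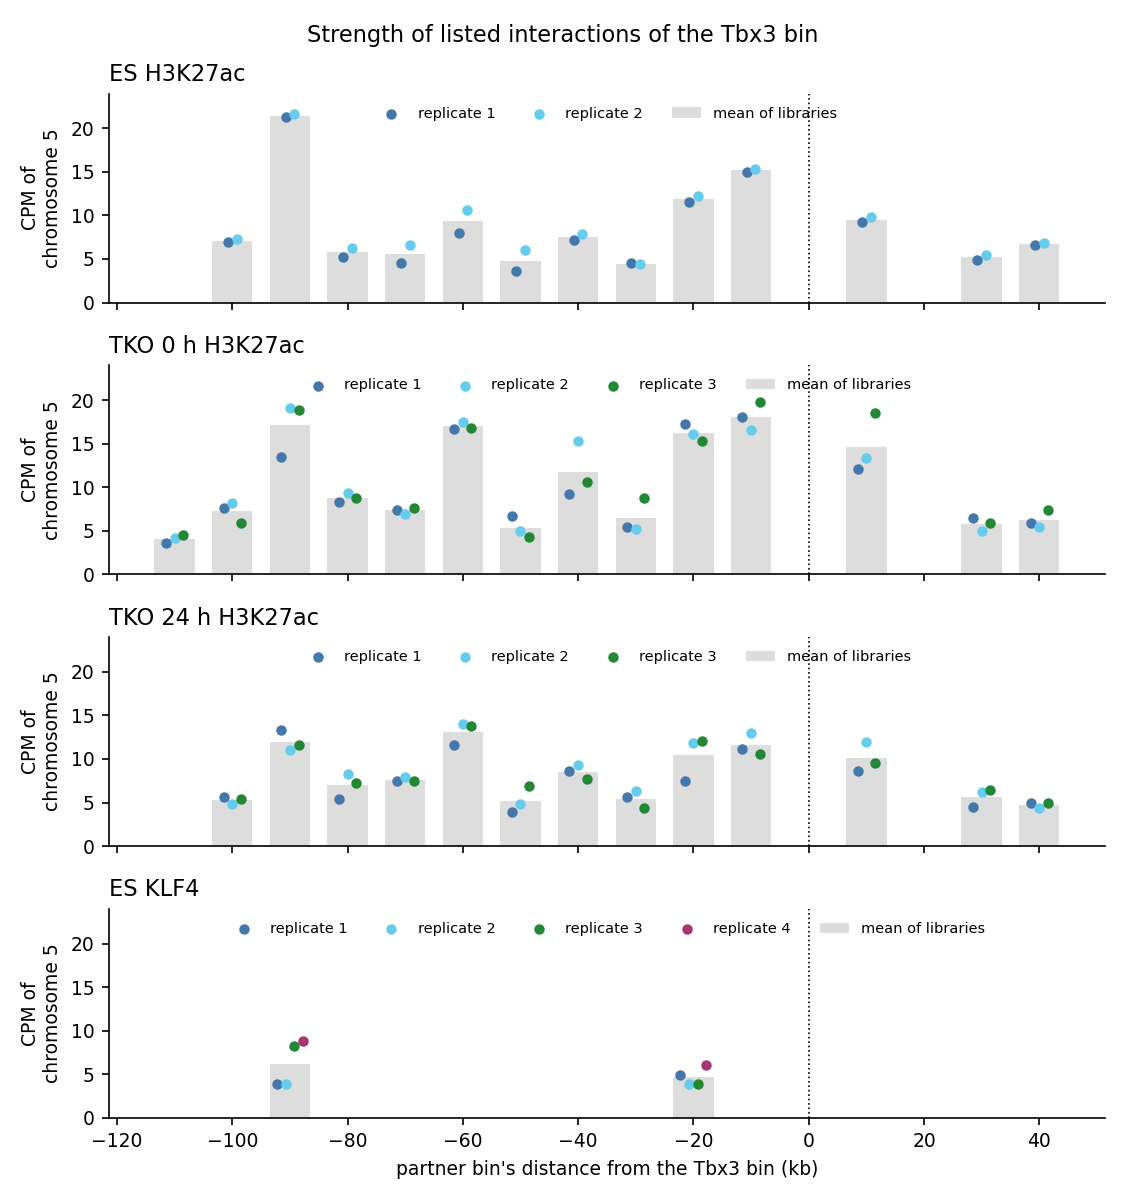
CPM of chromosome 5 (y axis) of each listed interaction of the Tbx3 bin against the partner's distance in kb (x axis), in 4 lists. Points are libraries and grey bars their mean, and in ES H3K27ac the partner 90 kb before stands at 21.3 and 21.6 CPM.

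In MEFs the Tbx3 bin and its neighbours had 0 H3K27ac interactions in the list, and none of the listed MEF H3K27ac pairs joined 2 bins of the whole stretch, where the ES list had 65. The lists of KLF4 at day 3 and day 6 also had 0 in the stretch. At the Tbx3 bin itself a count of 0 was common in MEF, since 43.7% of annotated gene bins had none. No interaction of the locus was in both lists, so the strength could not be tested between MEF and ES. The chromosome 5 contact totals were 4.34 and 6.09 M in MEF and 9.85 and 10.04 M in ES, so the ES libraries were deeper. Cutting the longer chromosome 5 lists to the 2331 strongest interactions, the length of the MEF list, left 20 of the 24 ES interactions.

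KLF4 HiChIP placed Tbx3 contacts in ES cells and in neither list of the reprogramming days. Day 3 had 0 of 23720 listed interactions at the 3 bins and day 6 had 0 of 4047, whereas ES had 4 of 24589. Such zeros were common, since 60.5% of annotated gene bins at day 3 and 87.9% at day 6 had none. Of those bins, 3697 (35.3%) had none in the MEF H3K27ac list and in the lists of both days, as Tbx3 did, and 39 of these, Tbx3 among them, had 13 or more ES H3K27ac interactions. All 4 ES entries were lost when the chromosome 5 lists were cut to the 152 strongest interactions, the length of the day 6 list. The ES KLF4 list held 1212 interactions on chromosome 5. None of the 4 had an FDR under 0.1, which 0.199% of the whole ES KLF4 list had. The Tbx3 bin had 2 of the 4, and 33.5% of annotated gene bins had 2 or more in that list. With 0 entries at day 3 and day 6 no locus interaction could be tested against ES.

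The KLF4 contact of ES cells with the highest mean was the one between Tbx3 and the bin 90 kb before. Its CPM was 3.90, 3.94, 8.20 and 8.80 in the 4 libraries, from 20, 12, 36 and 52 counts. Replicates 1 and 2 lay below replicates 3 and 4, and each of these pairs agreed within sampling noise over the interactions with a mean of at least 6 CPM and was counted as 1 replicate. It ranked 1 of the 7 chromosome 5 pairs at that distance, with p = 9.14e-07 and FDR = 1 in the authors' deposited list. It was the highest of the 4 in replicates 3 and 4 only. In replicate 1 the bins 20 and 10 kb before led with 6.83 CPM, and in replicate 2 the bins 10 and 30 kb after led with 4.93 CPM. The other 3 were short. The bins 20 and 10 kb before Tbx3 were joined at 3.28 to 6.83 CPM, the bin 20 kb before and Tbx3 at 3.87 to 6.09 CPM, and the bins 10 and 30 kb after at 3.12 to 5.01 CPM. All 4 were also in the ES H3K27ac list, where they made up 16.7% of the 24, and 1 of the 4 was in the ES Hi-C list. Of all 24589 ES KLF4 interactions, 18188 were in the ES H3K27ac list and 15448 in the ES Hi-C list.

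Without an antibody, the ES Hi-C list had 17 interactions of the 3 bins, 6 of them at the Tbx3 bin, all with partners 50 to 100 kb before it. That number was ordinary, since the median annotated gene bin also had 6, and 53.1% had as many or more. Hi-C strengths are given as counts, because the scale of the deposited Hi-C signal is not tied to a contact total. Tbx3 and the bin 90 kb before had 16 and 30 counts, and whether the libraries differed beyond counting noise was not tested. The bins 80 kb and 70 kb before had 22 and 30 counts and 23 and 27 counts with Tbx3. The strongest ES Hi-C pair by deposited signal joined the bins 30 and 10 kb before Tbx3, at 35 and 47 counts. It ranked only 1916 of 2945 chromosome 5 pairs of its short distance. The contact 90 kb away ranked 139 of 891 chromosome 5 pairs of its distance in Hi-C, against 1 of 31 in the ES H3K27ac list, and the lists differ in antibody, filter and length. Of the 17, 10 (58.8%) were in the ES H3K27ac list, where they made up 41.7%. Over the whole lists 38633 were shared, of 318622 in ES Hi-C and 75466 in ES H3K27ac.

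The MEF Hi-C list had 4 interactions of the 3 bins, 0 of them at the Tbx3 bin and 0 shared with ES Hi-C. Of annotated gene bins 21.5% had none in that list, and 127440 of its 228083 interactions were shared with ES Hi-C. The only one of the 4 on the scale of the ES contacts joined the bins 20 and 10 kb before Tbx3, at 29 and 42 counts. It ranked 2876 of 2895 chromosome 5 pairs of its distance. The other 3 joined the bin after Tbx3, which holds the end of the gene, with bins 810, 820 and 900 kb away. They had 16 and 17, 16 and 18, and 24 and 12 counts in the 2 MEF libraries, and each was the only listed chromosome 5 pair of its distance, with FDR of 4.31e-19, 1.39e-20 and 1.66e-23 in the authors' deposited list.

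These far contacts lay at the corner of a domain. In the authors' TAD lists, which mark regions of frequent self-contact in steps of 40 kb and give no replicate values, the MEF domain with the Tbx3 bin ran over chr5:118760001-119720000 (960 kb). The ES domain ran over chr5:119240001-119720000 (480 kb). Both ended 40 kb after the Tbx3 bin, and the MEF domain started where ES had a further boundary and continued across a boundary that only the ES list placed at 119240000. MEF Hi-C listed 13 pairs of 500 kb or more inside its domain, of 58 on chromosome 5, and ES Hi-C listed 0 there, of 4 on chromosome 5. All 13 joined chr5:118770001-118880000, which begins just past the end of Med13l (118765438), with the bin after Tbx3 or bins beyond it, at 12 to 33 counts per library. The far anchors lie in the ES list's neighbouring domain. All ES, TKO and KLF4 interactions of the 3 bins lay inside the ES domain, and 1 of the 4 in MEF Hi-C did. In the 7 HiChIP lists, 0 pairs of 500 kb or more lay inside the MEF domain.

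**Figure D3:**
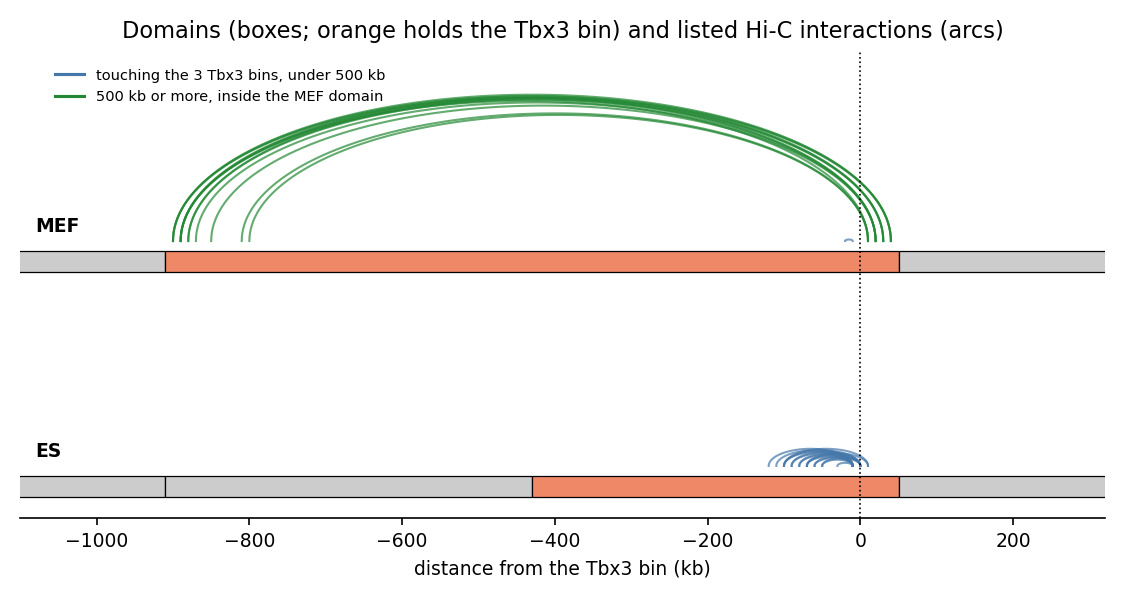
Domains (boxes, orange where they hold the Tbx3 bin) and listed Hi-C interactions (arcs) of MEF (top) and ES (bottom) against the distance from the Tbx3 bin in kb (x axis). Arc height follows the span, the 13 green MEF arcs span 810 to 940 kb, and the blue ES arcs span up to 110 kb.

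In TKO cells at 0 h the list held 30 interactions of the 3 bins, 14 at Tbx3, and after 24 h of doxycycline it held 24 and 13. All 24 were among the 30, where they made up 80%, against 67728 of 93248 interactions in the whole 0 h list. The other 6 were in the 0 h list alone. Those 6 were weak at 0 h, with 3.18 to 6.97 CPM in single libraries, and 5 of them touched the bin after Tbx3. The 0 h list shared 23 interactions with the ES H3K27ac list, which is 76.7% of the 30 and 95.8% of the 24. Over the whole lists 58574 were shared, of 93248 at 0 h and 75466 in ES. At 0 h the contact 90 kb before had 13.4, 19.1 and 18.9 CPM, set beside 21.3 and 21.6 CPM in the V6.5 ES cells that are not labelled TKO.

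After 24 h of doxycycline edgeR called the contacts of Tbx3 with the bins 10 and 20 kb before it lower. It also called the summed contacts of all 3 bins lower. Both single contacts lost the call with DESeq2 and when some single libraries were left out, and DESeq2 did not call the bin before Tbx3. Of the 24 interactions in both lists, edgeR's quasi-likelihood test (Benjamini-Hochberg adjusted p under 0.05) called 2 lower and 0 higher. Over all 67723 tested interactions, 2.19% were called lower, 0.602% higher and 2.79% in either direction. The estimate was negative for 18 of the 24, with a median log2 change of -0.29 against 0.01 over all, and 10 had an unadjusted p under 0.05, against 13.8% of all. In 14 of the 24 all 3 libraries at 24 h lay below all 3 at 0 h, against 17.2% of all interactions, and in 0 they all lay above, against 3.9%. The interactions share anchors and libraries and are not independent.

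The summed CPM of the 24 was 216, 234 and 236 in the 3 libraries at 0 h. It was 163, 184 and 169 at 24 h. The groups did not overlap. These CPM lack the TMM factors of the tests, and without TMM the median log2 change over all interactions was -0.10 in place of 0.01. For the tests, replicates 1 and 3 at 24 h, which agreed within sampling noise, were counted as 1.

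Tbx3 and the bin before it had 18.1, 16.5 and 19.7 CPM at 0 h and 11.1, 13.0 and 10.6 CPM at 24 h. The groups did not overlap, and the log2 change was -0.51 ± 0.14 (SE) with edgeR's adjusted p = 0.0186. Tbx3 and the bin 20 kb before had 17.3, 16.1 and 15.3 CPM at 0 h and 7.42, 11.8 and 12.1 CPM at 24 h. Again the groups did not overlap, with replicate 1 lowest at 24 h, and the log2 change was -0.49 ± 0.15 (SE) with edgeR's adjusted p = 0.0349. DESeq2 called neither (adjusted p = 0.22 and 0.29). The first lost its call in edgeR without replicate 1 or 3 of either time (adjusted p from 0.0642 to 0.134), and the second without replicate 1 or 2 of either time (0.0521 to 0.312).

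None of the distal contacts of Tbx3 was called one by one in this fit. The contact 90 kb before had 13.3, 10.97 and 11.7 CPM at 24 h, all below the 13.4, 19.1 and 18.9 CPM at 0 h, though replicate 1 at 0 h and replicate 1 at 24 h nearly met. Its log2 change was -0.39 ± 0.14 (SE) with edgeR's adjusted p = 0.131. It was called lower by edgeR without TMM (-0.50, adjusted p = 0.0264) and without 0 h replicate 1 (-0.54, adjusted p = 0.037), and its adjusted p was 0.106 to 0.466 with any other library left out. The contact 60 kb before had 16.7, 17.5 and 16.8 CPM at 0 h and 11.6, 14.0 and 13.7 CPM at 24 h, and became the strongest of the 24 h list. Its groups did not overlap either, and the log2 change was -0.24 ± 0.14 (SE) with edgeR's adjusted p = 0.46. The partner 100 kb before changed by -0.35 ± 0.21 (SE, adjusted p = 0.473 in edgeR) and that 80 kb before by -0.16 ± 0.19 (SE, adjusted p = 0.78 in edgeR). The last moved to -0.048 without 24 h replicate 1 and to -0.31 without 24 h replicate 2.

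At 3 partners of the Tbx3 bin the estimate was positive and the 2 times overlapped. The bin 70 kb before had 7.41, 6.97 and 7.64 CPM with Tbx3 at 0 h and 7.42, 7.98 and 7.49 CPM at 24 h. The bin 50 kb before, which holds Gm16063, had 6.64, 4.98 and 4.25 CPM at 0 h and 3.96, 4.82 and 6.87 CPM at 24 h. The bin 30 kb after had 6.49, 4.98 and 5.94 CPM at 0 h and 4.45, 6.15 and 6.45 CPM at 24 h. The log2 changes were 0.18 ± 0.19, 0.07 ± 0.22 and 0.10 ± 0.22 (SE), and edgeR called none (adjusted p = 0.76, 0.941 and 0.903). Without TMM the second turned to -0.037 and the third to -0.0058. The pair of bins 20 and 10 kb before, the most widely listed one beside the contact 90 kb away, had 11.4, 15.3 and 13.0 CPM at 0 h and 7.91, 9.98 and 7.29 CPM at 24 h. These did not overlap, with a log2 change of -0.49 ± 0.16 (SE) and edgeR's adjusted p = 0.0725.

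**Figure D4:**
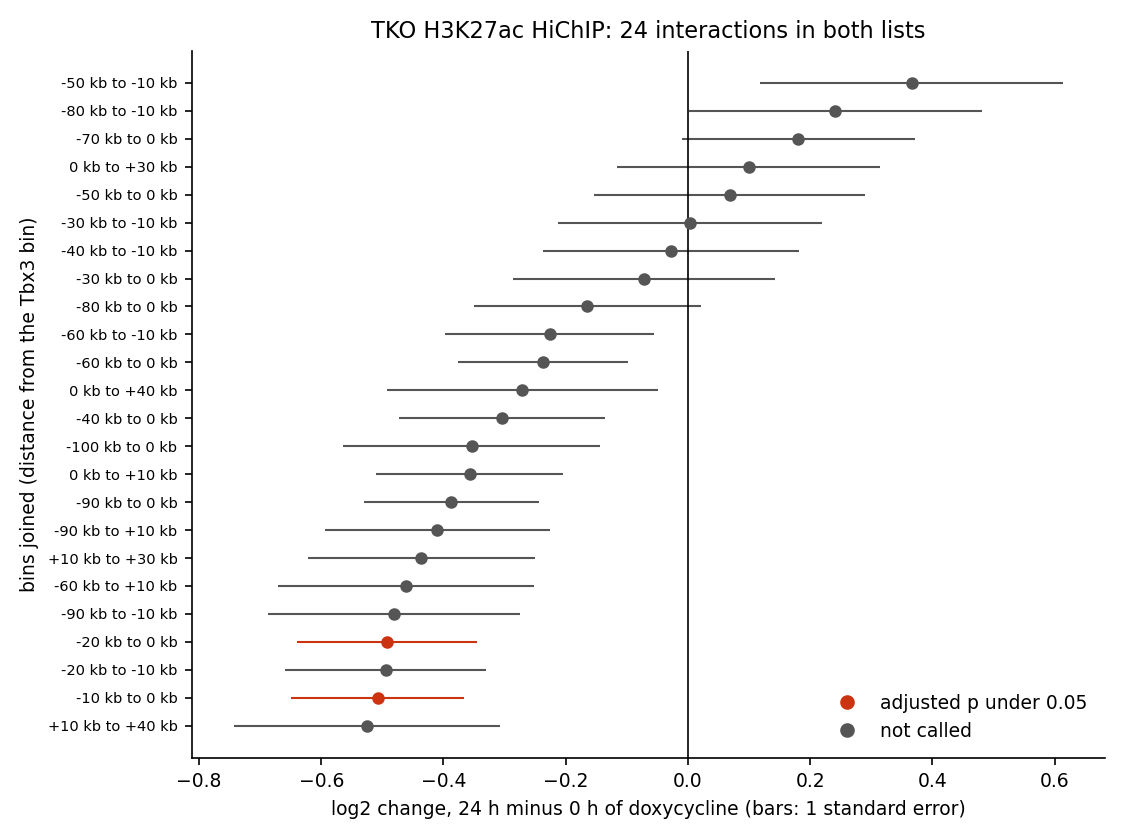
Log2 change from 0 h to 24 h (x axis, bars 1 standard error) of the 24 interactions in both TKO lists, each named on the y axis by its bins' distances from the Tbx3 bin. The 2 called interactions, in red, lie at -0.51 and -0.49, and 18 of the 24 points lie below 0.

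Counts summed per bin over all interactions in both lists gave more depth. The Tbx3 bin summed to 135, 143 and 148 CPM at 0 h and to 98.4, 114 and 108 CPM at 24 h, without overlap. These CPM lack the TMM factors that the tests used, and the share of all bins without such overlap was not counted. Over all bins the median log2 change was 0.01 with TMM and -0.10 without. The Tbx3 bin fell by 0.27 ± 0.06 (SE) on the log2 scale with TMM, with edgeR's adjusted p = 0.000197. Its change without TMM was -0.37. The bin before fell by 0.26 ± 0.07 (SE, edgeR's adjusted p = 0.00497) and the bin after fell by 0.43 ± 0.08 (SE, edgeR's adjusted p = 1.58e-05). DESeq2 called the Tbx3 bin and the bin after but not the bin before (adjusted p = 0.141), and without replicate 3 at 24 h edgeR's adjusted p for the bin before was 0.0615.

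The bin 90 kb before Tbx3 stood out in these sums. Its 14 interactions summed to 151, 167 and 162 CPM at 0 h and to 110, 112 and 110 CPM at 24 h, so the groups did not overlap on this scale without TMM. It fell by 0.41 ± 0.06 (SE) on the log2 scale with edgeR's adjusted p = 6.85e-10, and DESeq2 called it too (adjusted p = 4.55e-06). Over the 16 bins of the stretch from 110 kb before to 40 kb after, 8 were called lower and 0 higher, against 6.42% and 3.35% of 40531 bins. Those shares cover bins of every depth and were not matched to bins that sum as many interactions. Small changes are called more easily in deeply counted bins. The called bins lay 100, 90, 60, 20 and 10 kb before Tbx3, at Tbx3 and 10 and 40 kb after it. DESeq2 did not call the bins 100 kb before and 40 kb after (adjusted p = 0.25 and 0.245). In edgeR the first lost its call without 0 h replicate 1 or 24 h replicate 3 (adjusted p = 0.0884 and 0.138), and the second without replicate 2 or 3 of either time (0.0592 to 0.113). Bins 80, 70, 50, 40 and 30 kb before had log2 changes of -0.08 to -0.11 and were not called. A contact between 2 of these bins counts in both, so the 16 values are not independent.

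**Figure D5:**
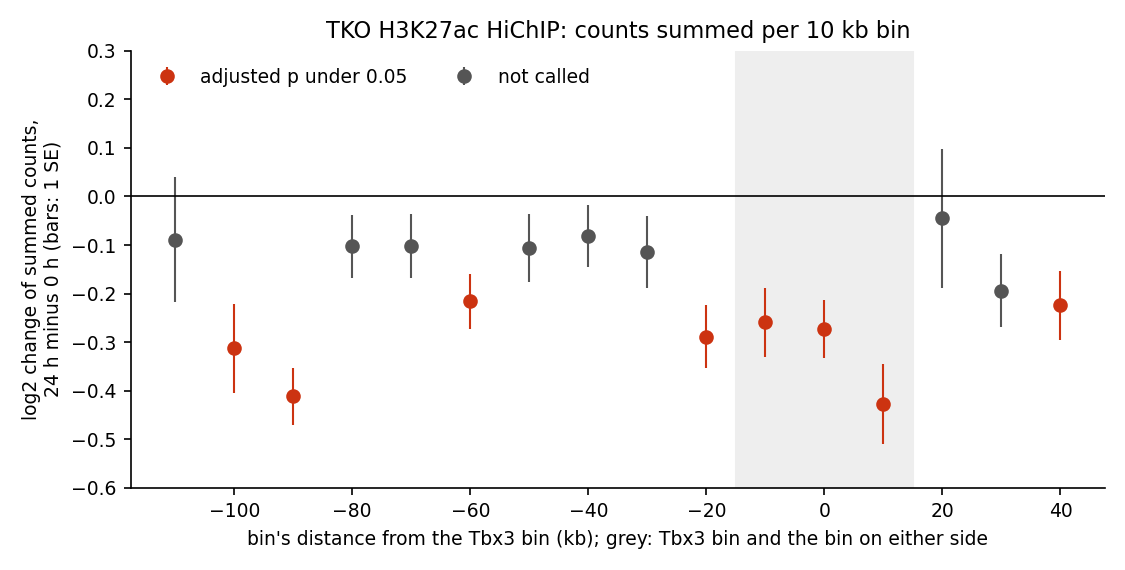
Log2 change of summed counts from 0 h to 24 h (y axis, bars 1 standard error) for the 16 bins of the stretch against the distance from the Tbx3 bin in kb (x axis). Red bins passed edgeR's adjusted p of 0.05, and the lowest, the bin 10 kb after and the bin 90 kb before, stand at -0.43 and -0.41.

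Among contacts of the stretch that do not involve the 3 bins, some were lower too. Of these 38 interactions, 2 were called lower and 0 higher, against 2.19% and 0.602% of all interactions, and the median log2 change was -0.15 against 0.01 over all. Both joined the bin 90 kb before Tbx3, with the bin 60 kb before (-0.59 ± 0.12, SE, edgeR's adjusted p = 0.000381) and with the bin 70 kb before (-0.45 ± 0.14, SE, edgeR's adjusted p = 0.0411). DESeq2 called the first (adjusted p = 0.0335) and not the second (adjusted p = 0.267), and the second missed edgeR's threshold when any 1 library was left out (adjusted p from 0.0516 to 0.217). H3K27ac itself was not measured apart from contacts here, beyond the peaks that the lists mark at each bin. In HiChIP, fewer contacts and less of the mark at the anchors cannot be told apart.

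T-box genes encode factors with the same kind of DNA-binding domain as TBX3, and those with an annotated bin had fewer ES H3K27ac interactions than Tbx3. Of the 16 T-box genes besides Tbx3, 8 had an annotated bin, with 18 interactions tested, of which 1 was higher and 0 lower, against 0.602% and 2.19% of all interactions. The higher one was at Tbx6, a gene of the presomitic mesoderm, whose bin also rose by 0.23 ± 0.08 (SE) on the log2 scale with edgeR's adjusted p = 0.0289. DESeq2 did not call that bin (adjusted p = 0.304), nor did edgeR without TMM (adjusted p = 0.364). Leaving out any 1 library other than replicate 3 at 24 h also lost it (adjusted p from 0.053 to 0.0943). Tbx5, the neighbour of Tbx3 on chromosome 5, had no annotated bin. In the lists of ES and MEF H3K27ac, Mga had 7 and 2 interactions, Tbx10 4 and 4, and Tbx6 4 and 2. Eomes had 1 and 0, Tbx4 0 and 1, Tbx15 0 and 3, and Tbx20 and Tbx21 0 and 0. Tbx3 had 13 and 0, and the median annotated gene bin had 3 and 1.

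Genes of the naive pluripotency network, the factors that keep ES cells in their ground state, were mostly listed with more H3K27ac contacts in ES cells than in MEFs. Of 16 listed, 14 had a bin, 13 of these had more H3K27ac interactions in ES than in MEF, and 10 had 0 in MEF. Over all 10485 annotated gene bins 64.2% had more in ES and 43.7% had 0 in MEF, and the ES libraries were deeper. After 24 h of doxycycline, 8 of their 107 tested interactions were lower and 0 higher, against 2.19% and 0.602% of all, with a median log2 change of -0.02. Of their 14 bins 3 were lower and 1 higher, against 6.42% and 3.35% of all bins, which were not matched for depth. The lower bins were those of Nanog (-0.26 ± 0.05, SE, edgeR's adjusted p = 6.95e-05), a homeobox factor of the core network, Tfcp2l1 (-0.29 ± 0.06, SE, edgeR's adjusted p = 7.42e-05) and Zfp42 (-0.19 ± 0.06, SE, edgeR's adjusted p = 0.023). The bin of Sall4, a zinc finger factor, rose by 0.16 ± 0.06 (SE, edgeR's adjusted p = 0.0452). DESeq2 called Nanog and Tfcp2l1 but neither Zfp42 (adjusted p = 0.214) nor Sall4 (adjusted p = 0.205), and Sall4 was not called without TMM (0.06, edgeR's adjusted p = 0.715). Zfp42 lost its call without 0 h replicate 2 or 3 or 24 h replicate 1 (edgeR's adjusted p from 0.07 to 0.245), and Sall4 without any 1 library other than 24 h replicate 3 (0.0661 to 0.52). The remaining 10 bins were not called, and ran from Nr0b1 at -0.29 ± 0.25 to Stat3 at 0.11 ± 0.09 (SE). Among them Klf4 stood at -0.26 ± 0.10 (SE, edgeR's adjusted p = 0.0691), close to the change at Nanog. Pou5f1 stood at 0.05 ± 0.06 (SE, and -0.050 without TMM) and Klf5 at -0.10 ± 0.06 (SE). The Tbx3 bin stood at -0.27 beside -0.26 and -0.29 at Nanog and Tfcp2l1, and the differences between genes were not tested.

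Nearby genes added little. Of 9 chromosome 5 neighbours 5 had a bin, and Tbx3os1 shares that of Tbx3. The bins of Gm16063, Tbx3os2, Med13l and Plbd2 were not called, with log2 changes of -0.11 ± 0.07, -0.05 ± 0.14, -0.08 ± 0.09 and 0.13 ± 0.18 (SE). The estimate at Tbx3os2 turned positive without 0 h replicate 2 (0.036) or 24 h replicate 1 (0.039).

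The annotated bins whose interaction numbers were most like those of Tbx3 over the 9 lists were, in order, those of Klf5, a Krüppel-like factor of ES cells, Dppa3, a maternal factor and naive marker, Mybl2, a cell cycle regulator, Triml2 and Plekhf2. Likeness was the Euclidean distance over log2 of the number plus 1, and it ran from 1.03 to 1.16. The first 4 had 0 interactions in MEF H3K27ac, in KLF4 at day 3 and day 6 and in MEF Hi-C, like Tbx3, and Plekhf2 had 1 at day 3. They had 8 to 12 in ES H3K27ac, 2 to 4 in ES KLF4 and 4 or 5 in ES Hi-C, against 13, 2 and 6 at Tbx3.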

How the data were processed

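Per the file headers, each deposited list pairs 10 kb bins and gives, for every library, a raw count, a signal named CPM and a distance-normalized ratio, and each interaction has 1 p-value and 1 FDR. The authors' TAD lists carry a score that was not used, and neither was the deposited ratio. Bowtie2 2.2.3 and mm10 are named in the submitters' processing notes, and the contact caller is not given in the sources used here. In HiChIP the deposited signal named CPM is the count over the chromosome's contact total, which was recovered from their quotient.

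Libraries whose counts agreed by a chi-square test (p of 0.05 or more, with another pair of the group differing, over interactions with a mean of at least 6 CPM) were summed: TKO 24 h replicates 1 and 3, and ES KLF4 replicates 1 with 2 and 3 with 4. TKO 0 h replicates 2 and 3 were borderline (chi-square over 53216 interactions, p just under the limit) and stayed separate, so 3 and 2 replicates were compared. Counts of all interactions in both TKO lists were tested with edgeR 4.0.16 (R 4.3.3): filterByExpr, TMM factors on contact totals, glmQLFit, Benjamini-Hochberg over all. Bins were tested on summed counts. The SE beside each of edgeR's log2 changes is the absolute change divided by the square root of the test's F value. It therefore restates that test and is not a separate measure of spread. On simulated data for the TKO comparison 78.5% of 200 interactions changed 2-fold were recovered among 67728 (10 false calls), and 91.5% of 200 bins among 40534 (11 false calls). Those changes were larger than the locus estimates of -0.53 to 0.37 (log2), and all features shared 1 dispersion. The rates therefore do not tell how many changes of the sizes seen here would be recovered. No pairing was used, because the labels do not say that a replicate number marks a shared culture or batch. Same-numbered libraries at 0 h and 24 h were not correlated over single interactions, but with few counts in each this cannot exclude pairing.

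The members and gene lists were chosen with earlier results of these data known. Interactions named singly are those at the Tbx3 bin that were called or in at least 4 lists, the strongest and the longest of each list, and any other called one. Other pairs, the sums of single bins of the stretch and members of the gene lists were named after their values were seen. Alternatives were DESeq2, other scaling, no filter, other joining, a replicate block and leaving out libraries. Tables were handled with Python 3.11.15 and pandas 2.3.3. PCR copies make counting errors a lower limit.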

Additional observations from a re-analysis of the deposited data

How the results depend on the processing

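With contact totals without TMM, where the median over all interactions is -0.10 in place of 0.01 (log2), 4 of the 24 TKO interactions at the locus were called, and with DESeq2 0 were (3 at an unadjusted p under 0.05). Leaving out 1 library gave 0 to 1. Over all interactions, 1892 were called (408 higher, 1484 lower), 3202 without TMM (183 higher, 3019 lower), 269 with DESeq2 and 1128 to 1330 with 1 library left out. The bins called over all numbered 3959, and 1028 with DESeq2. A replicate block with libraries separate, which the labels do not call for, left 2 of the 24 interactions and 3 of the 3 bins called, and 2016 interactions over all. Joining TKO 0 h replicates 2 and 3, chosen after seeing the data, and omitting the filter also left 2 and 3. The 3 bins remained called lower in every other setting run, except for the bin before Tbx3 with DESeq2 and without TKO 24 h replicate 3. The contact 50 kb before Tbx3 changed sign without TMM (-0.037), without TKO 0 h replicate 3 (-0.06) and without TKO 24 h replicate 3 (-0.16), was called under none, and ranged from -0.16 to 0.32 with 1 library left out. Over the 37 single log2 changes rerun under 12 alternatives (12 interactions, the 16 bins of the stretch and 9 gene bins elsewhere), 384 values kept direction and call (7 of them uncalled with no adjusted p from DESeq2), 48 lost the call, 4 gained it and 8 changed sign, and the cause was not tested. The gains were the contact 90 kb before Tbx3 (without TMM and without TKO 0 h replicate 1), the pair of bins 20 and 10 kb before and the bin 30 kb after (both without TMM). The other sign changes were the contact 30 kb after (-0.0058 without TMM, -0.0092 without TKO 0 h replicate 2, up to 0.23 with another library left out), the bin 20 kb after (0.036 and 0.039 without TKO 0 h replicate 2 or 24 h replicate 1) and Pou5f1 (-0.050 without TMM). The bin 90 kb before Tbx3 and its contact with the bin 60 kb before were called lower in every setting run, with log2 changes of -0.39 to -0.52 and -0.55 to -0.70.

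Counts in the lists depend on how the locus is drawn. The Tbx3 bin alone had 13 in ES H3K27ac, 14 and 13 in TKO at 0 h and 24 h, 2 in ES KLF4, 0 in MEF Hi-C and 6 in ES Hi-C. At an FDR under 0.1 there were 5 in ES H3K27ac, 9 and 2 in TKO at 0 h and 24 h, 0 in ES KLF4 and 0 in ES Hi-C. Over the whole lists the share was 5.90% in ES H3K27ac and 7.74% and 5.83% in TKO at 0 h and 24 h. It was 0.199% in ES KLF4 and 8.80% in ES Hi-C. With anchors at least 30 kb apart ES KLF4 had 1. With chromosome 5 lists of equal length TKO had 19 at 0 h and 13 at 24 h, ES KLF4 had 0 (of 152 interactions) and ES Hi-C had 7. For ES against MEF (H3K27ac and Hi-C), ES against day 3 or day 6 KLF4 and day 6 against day 3 KLF4, no locus interaction was in both lists, so none of the planned tests of strength was run. TKO 0 h against ES and one assay against another were set side by side without a test. Depth limits single interactions: the 24 had a median of 7.88 CPM at 0 h, from chromosome 5 totals of 4.05 to 6.47 M.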
